A study of Homo sapiens with 6 samples.

Results

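The genes of the interleukin-6 cytokine family were examined in the established VHL-deficient cell line 786-O, grown from a human clear cell carcinoma of the kidney, after knockdown of the long non-coding RNA LINC02068. The 10 genes were those rows of the count table whose symbol is IL6, IL11, LIF or CLCF1 (cytokines), IL6ST, IL6R, OSMR or LIFR (receptor subunits), STAT3 (the transcription factor they activate) or SOCS3 (its feedback inhibitor). All 10 of the 60649 genes in the table passed the filter on low counts, which 16039 genes passed in all. The first group of 2 libraries came from cells with a short hairpin RNA against LINC02068 called shRNA1, the second group of 2 from cells with a second such hairpin, shRNA2, and the third group of 2 from cells with a control hairpin, shControl, which the labels list as wild type (WT). All cells were grown in RPMI-1640 with fetal bovine serum and had no further treatment. The labels do not say whether the libraries of a group come from separate cultures, or whether cells with a hairpin were clones or pools, so the p-values measure only the spread between these libraries, which may be technical.

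Cytokines of this family signal through receptor complexes that contain IL6ST, the shared subunit, except IL-31, which uses IL31RA together with OSMR. IL-6 and IL-11 first bind their own receptors, IL6R and IL11RA, and then 2 copies of IL6ST. LIF engages IL6ST together with LIFR, and CLCF1 engages these subunits together with a further receptor, CNTFR. Oncostatin M engages IL6ST together with OSMR or LIFR. Janus kinases bound to these subunits phosphorylate STAT3, which enters the nucleus and induces its target genes, among them SOCS3, whose product binds IL6ST and the kinases and shuts the signal down. IL-6 made by renal carcinoma cells is known as a growth factor and as a source of the acute phase response in patients. The counts measure transcripts, so cytokine release and STAT3 phosphorylation were not measured.

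Total counts per library were 15376448 to 37311846, and 14.9 to 36.0 counts made up 1 CPM (counts-per-million, over library sizes scaled by the trimmed mean of M values, TMM). TMM factors were 0.960 to 0.969 in the hairpin and 1.07 to 1.08 in the control libraries, and shRNA1 replicate 1 had a second principal component of 50.4, where the other libraries ran from -23.0 to 4.99. The targeted LINC02068 had 9 and 2 counts with shRNA1, 17 and 10 with shRNA2, and 20 and 32 with shControl. Its log2 fold change for the mean of both hairpins was -1.46 ± 0.59 (standard error, SE; edgeR adjusted p = 0.0447), and the call was lost without any 1 library other than shRNA1 replicate 1 (-1.02 to -1.50, adjusted p 0.0972 to 0.219). It was -2.26 (adjusted p = 0.00914) without shRNA1 replicate 1, and DESeq2 did not call the gene (-1.45, adjusted p = 0.108). Neither hairpin alone passed (adjusted p 0.0690 and 0.148). Transcripts of the labelled cell type were present, with 12 kidney and renal carcinoma markers summing to 8600 to 8734 CPM in the hairpin and 6979 to 7015 CPM in the control libraries, although LRP2 was at 0 in every library. Most of this sum came from VIM (5899 to 5971 against 5142 and 5151 CPM) and KRT8 (1520 to 1604 against 832 and 831 CPM). Of the 11 that could be tested 6 were higher, among them KRT8 (0.90 ± 0.03), and 5 not called. The share called higher over all tested genes was 28.6%, and that called lower 28.9%. With library sizes taken as total counts without TMM factors, 4 were higher and 1, CDH16, was lower (-0.25, adjusted p = 0.0176). The shares over all tested genes were then 21.2% higher and 37.6% lower. PAX8 was called for the mean (0.10 ± 0.03, adjusted p = 0.0131) and with shRNA2 but not with shRNA1, was -0.06 (adjusted p = 0.108) with total counts, and lost its call without either control (adjusted p 0.105 and 0.0811). Leukocyte markers summed to 39.5 to 46.1 against 42.5 to 45.8 CPM with PTPRC, CD3E and LYZ at 0, and most of this was CD68 (36.9 to 44.0 against 35.8 and 39.6 CPM, not called). CSF1R was called lower, at 1.21 to 1.78 against 5.95 and 5.10 CPM (-1.88 ± 0.23, adjusted p = 5.0e-06), and CD14, under 1 CPM, was called lower with shRNA1 only (-1.81 ± 0.72, adjusted p = 0.0477). Fibroblast markers summed to 15.0 to 16.9 against 19.0 to 20.3 CPM with COL1A2 and DCN at 0. Among them LUM (-0.72 ± 0.17, adjusted p = 0.00161) and PDGFRB (-1.06 ± 0.28, adjusted p = 0.00418) were called lower, PDGFRB not without shControl replicate 1 (-0.79, adjusted p = 0.101). Endothelial markers summed to 1.28 to 2.09 against 1.57 to 1.72 CPM with CDH5 at 0, and neither of the 2 that could be tested, PECAM1 and TEK, was called. The part of these markers in the results on the 10 genes was not tested.

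With both hairpins the transcripts of 3 of the 4 cytokines and of 2 of the 4 receptor subunits were lower than in the controls. For the mean of both hairpins STAT3 and SOCS3 were within 1.11-fold of their control levels. In bulk RNA, fewer cells that express a gene and less RNA per cell cannot be told apart. A gene was called when its Benjamini-Hochberg adjusted p over all tested genes was under 0.05 in edgeR's quasi-likelihood test. For the mean of both hairpins 8 of the 10 genes were called, 5 lower (IL6, IL11, LIF, OSMR and LIFR) and 3 higher (CLCF1, IL6R and STAT3). Over all tested genes 57.5% were called, 28.9% lower and 28.6% higher, the shares against which the calls among the 10 genes and in each gene list are to be read. With total counts these shares were 37.6% lower and 21.2% higher. Called decreases beyond a log2 fold change of -1 made up 8.09% of tested genes and held IL6, IL11 and OSMR, and those beyond -2 made up 2.05% and held IL11. Each hairpin alone gave 8 calls, 5 lower and 3 higher, against 52.4% of all tested genes for shRNA1 (25.6% lower, 26.8% higher) and 52.8% for shRNA2 (26.1% lower, 26.7% higher). The median log2 fold change was -0.31 over the 10 genes and -0.03 over all tested genes.

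**Figure D1:**
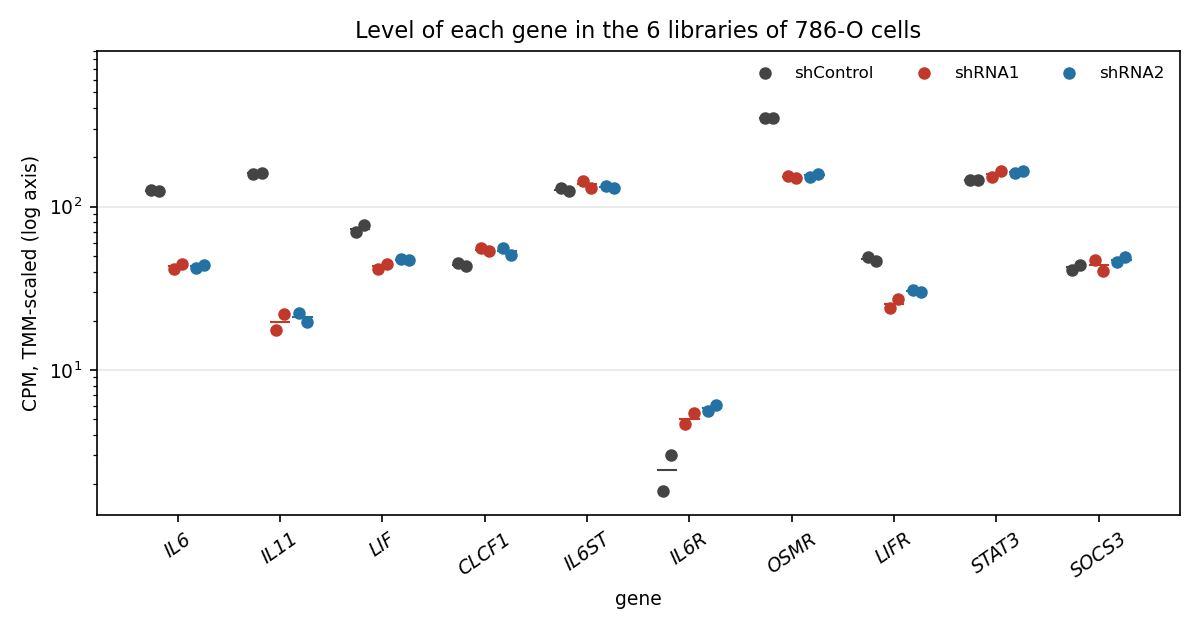
Level of each of the 10 genes in the 6 libraries. The vertical axis is CPM on a log scale, each point is 1 library, and the short lines are group means; levels can be compared within a gene but not between genes of different length. IL6, IL11, LIF, OSMR and LIFR are lower in all 4 hairpin libraries than in both control libraries, and SOCS3 is the gene whose hairpin and control libraries overlap.

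IL11, a cytokine linked to fibrosis and to tumour and stromal cell growth, fell most. It stood at 17.5 and 22.0 CPM with shRNA1 and at 22.2 and 19.7 CPM with shRNA2, against 159 and 160 CPM in the controls. The 2 control libraries nearly coincided, and the hairpin libraries lay far below them. The log2 fold change was -2.96 ± 0.07 for the mean of both hairpins (7.80-fold lower, adjusted p = 9.1e-13), with -3.00 ± 0.10 for shRNA1 and -2.92 ± 0.09 for shRNA2. In GENCODE 29 (GRCh38) IL11 spans chr19:55364389-55370463, minus strand, free of overlapping genes. The 250 bases before its RefSeq start (GRCh38.p14, chr19:55370464-55370713, minus strand) are shown because IL11 had the largest change, with a match to an AP-1 element (TGANTCA) in capitals, 96 bases upstream of the start.
IL11 upstream region: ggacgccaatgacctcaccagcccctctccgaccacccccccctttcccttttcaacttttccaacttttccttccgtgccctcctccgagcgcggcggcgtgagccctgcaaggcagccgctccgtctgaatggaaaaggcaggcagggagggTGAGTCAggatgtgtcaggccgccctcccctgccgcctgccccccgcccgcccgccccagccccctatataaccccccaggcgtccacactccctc

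IL6, the founding member and an inducer of the acute phase response, fell by about the same amount with each hairpin. Its level was 41.5 and 44.6 CPM with shRNA1, 42.2 and 44.2 CPM with shRNA2, and 126 and 124 CPM with shControl. The 4 hairpin libraries lay close to each other and far below the controls. This was a log2 fold change of -1.54 ± 0.05 for the mean (2.90-fold lower, adjusted p = 1.9e-12), -1.54 ± 0.07 for shRNA1 and -1.54 ± 0.06 for shRNA2. IL6 spans chr7:22725884-22732002 on the plus strand. STEAP1B and the antisense transcript IL6-AS1 overlap it on the other strand, and the strand setting of the counting is not given in the sources used here. The region upstream of its RefSeq start (GRCh38.p14, chr7:22726950-22727146, plus strand) is shown beside that of IL11. The 53 bases next to this start are left out because they are exon in other annotated IL6 transcripts. The region shown lies inside the GENCODE 29 gene, and the distances given count from the RefSeq start only. Capitals mark matches to a C/EBP element (TTGCNNAA) 155 bases and to an NF-kB element (GGG and TTTCC with any 2 bases between) 73 bases upstream of the start.
IL6 upstream region: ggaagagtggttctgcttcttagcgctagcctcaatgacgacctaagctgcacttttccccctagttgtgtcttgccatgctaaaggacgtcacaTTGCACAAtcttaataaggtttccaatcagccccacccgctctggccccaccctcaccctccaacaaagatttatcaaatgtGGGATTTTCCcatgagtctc

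LIF, leukaemia inhibitory factor, fell less. It stood at 41.6 and 44.4 CPM with shRNA1, at 47.6 and 47.1 CPM with shRNA2, and at 69.6 and 77.2 CPM with shControl. No hairpin library reached the lower control, and both shRNA1 libraries lay below both shRNA2 libraries. LIF thus changed by -0.70 ± 0.06 on the log2 scale for the mean (1.63-fold lower, adjusted p = 9.2e-08), -0.77 ± 0.07 for shRNA1 and -0.63 ± 0.07 for shRNA2. LIF lies at chr22:30240447-30246851 on the minus strand, where the antisense genes LIF-AS1 and LIF-AS2 overlap its ends.

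CLCF1, cardiotrophin-like cytokine factor 1, went the other way by a small amount. Its level was 55.7 and 53.5 CPM with shRNA1, 55.9 and 50.6 CPM with shRNA2, and 45.0 and 43.1 CPM with shControl. All hairpin libraries lay above both controls, by a small margin. On the log2 scale the change was 0.30 ± 0.07 for the mean (1.23-fold higher, adjusted p = 0.00114), 0.31 ± 0.08 for shRNA1 and 0.28 ± 0.07 for shRNA2. It was 0.14 (adjusted p = 0.0820) with total counts, and for shRNA2 alone the call was lost without shRNA2 replicate 1 (0.19, adjusted p = 0.0965) or shControl replicate 2 (0.24, adjusted p = 0.0604). CLCF1 spans chr11:67364168-67374177 on the minus strand, and its locus is shared with RAD9A on the plus strand and with a second protein-coding gene model on its own strand, so that its counts are uncertain where reads could be split.

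The composition of the 4 cytokine transcripts, compared per kilobase of exon because the genes differ in length, shifted with both hairpins. Summed over the 4 genes, the level was 65.3 and 68.1 CPM per kb with shRNA1, 69.0 and 66.2 with shRNA2, and 161 in each of the controls. IL11 held 37.1% of this sum in both controls and 10.1 to 12.1% in the hairpin libraries. IL6 held 37.2 and 37.9% in the controls and 29.6 to 32.2% with the hairpins. CLCF1 went from 13.5 and 14.1% to 38.7 to 43.2% and LIF from 10.9 and 12.1% to 16.0 to 17.9%. The larger share of LIF goes with a lower level of its own, since it fell less than the sum.

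**Figure D2:**
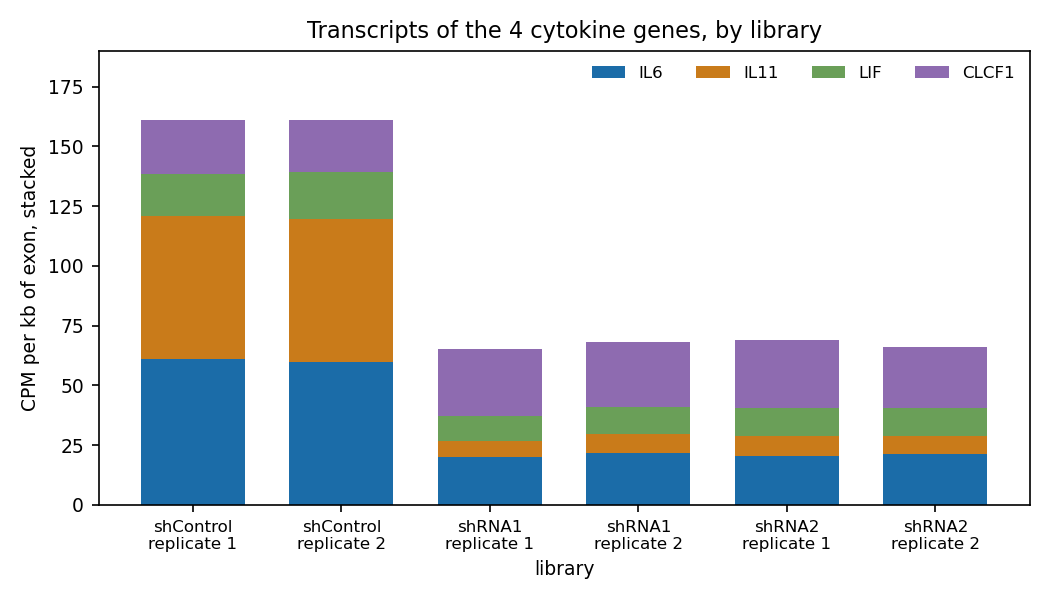
Transcripts of the 4 cytokine genes in each library, as stacked CPM per kilobase of exon. The controls reach 161 in total and the hairpin libraries 65.3 to 69.0; the segments of IL6 and IL11 shrink most, and that of CLCF1 is the largest in each hairpin library.

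Cytokine transcripts are often short-lived because their 3′ untranslated regions hold AU-rich elements, which decay factors of the ZFP36 family and the stabilising protein ELAVL1 bind. The nonamer TTATTTATT, a core of such elements, was searched on the sense strand in the 3′ untranslated region of 1 GENCODE 29 transcript per gene, the one with the best APPRIS rank. It was found in 5 of the 10 genes and in 7.46% of 19193 protein-coding genes. This share is not matched for the length of the region, which was 968 to 6632 bases in the 5 genes. IL11 held 6 copies, which may overlap, LIF, CLCF1 and OSMR held 2 each, and LIFR held 1. The first copy in each gene is printed with 8 flanking bases on either side, the nonamer in capitals. These sites were chosen for printing after the values were seen. Of the 5 genes 4 fell and CLCF1 did not, and a link of the motif to the changes was not tested.
IL11: gccagatcTTATTTATTtatttatt
LIF: ccgggcccTTATTTATTatttaaac
CLCF1: attaatatTTATTTATTtggagatg
OSMR: ttttacttTTATTTATTttttgaga
LIFR: tgcccatcTTATTTATTctagaaga
IL6 has no nonamer but 6 copies of the shorter ATTTA in a region of 429 bases. The shorter motif occurs in 64.1% of genes and in all 10 genes here, with 4 copies in CLCF1, STAT3 and SOCS3 and up to 29 in LIFR, whose region is 6632 bases long. A match of letters is a description, and transcript stability was not measured.

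Among the other cytokines of the family, 1 of 6 could be tested, and it was not called. CNTF, a neurotrophic member, stood at 0.672, 0.680, 1.70 and 1.15 CPM with the hairpins and at 0.697 and 0.713 CPM in the controls (0.48 ± 0.45, adjusted p = 0.386). CTF1, IL27 and IL31 had no counts, and OSM, which encodes the ligand of OSMR, had at most 7. EBI3, a subunit of IL-27 and IL-35, had 0 counts in both controls and in shRNA1 replicate 1 and 7 to 15 in the other 3 libraries, too few to pass the filter.

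Of the receptor subunits, OSMR and LIFR fell, IL6R rose from a low level, and the shared subunit IL6ST was not called. OSMR, the signalling receptor of oncostatin M, stood at 155 and 149 CPM with shRNA1, at 152 and 159 CPM with shRNA2, and at 348 and 351 CPM with shControl. Both groups were tight and clearly apart. OSMR changed by -1.18 ± 0.03 on the log2 scale for the mean (2.27-fold lower, adjusted p = 2.0e-13), -1.20 ± 0.04 for shRNA1 and -1.17 ± 0.04 for shRNA2. OSMR spans chr5:38845858-38945596 on the plus strand and overlaps RICTOR on the minus strand at its end.

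LIFR, the subunit that binds LIF, stood at 23.8 and 27.2 CPM with shRNA1, at 31.0 and 30.0 CPM with shRNA2, and at 49.2 and 46.7 CPM with shControl. All hairpin libraries lay below both controls, and the shRNA1 libraries lay below those of shRNA2. The log2 fold change was -0.78 ± 0.07 for the mean (1.72-fold lower, adjusted p = 2.7e-07), -0.91 ± 0.09 for shRNA1 and -0.65 ± 0.09 for shRNA2. LIFR spans chr5:38474963-38608354 on the minus strand, where LIFR-AS1 overlaps it. OSMR and LIFR are neighbours on chromosome 5, 238 kb apart with no annotated protein-coding gene between them.

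IL6R, which binds IL-6 and is needed for the response to IL-6 unless a soluble form is supplied, was scarce. It had 69 and 104 counts with shRNA1, 203 and 128 with shRNA2, and 34 and 85 with shControl. In CPM these were 4.64 and 5.44, 5.64 and 6.12, and 1.82 and 3.03. All hairpin libraries lay above both controls, which differed from each other: their 95% exact Poisson intervals, which cover counting error only, were 1.26 to 2.55 and 2.42 to 3.75 CPM. Its log2 fold change was 1.14 ± 0.24 for the mean (2.21-fold higher, adjusted p = 6.7e-04), 1.03 ± 0.27 for shRNA1 and 1.25 ± 0.26 for shRNA2. It depended on which control was kept, at 0.84 (adjusted p = 0.0200) without shControl replicate 1 and 1.57 (adjusted p = 8.9e-06) without shControl replicate 2, and for shRNA1 alone the call was lost without shControl replicate 1 (0.73, adjusted p = 0.0588). IL6R lies at chr1:154405193-154469450 on the plus strand, where the antisense gene IL6R-AS1 and the processed pseudogene PSMD8P1 overlap it on the minus strand.

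IL6ST stood at 144 and 130 CPM with shRNA1, at 134 and 129 CPM with shRNA2, and at 129 and 125 CPM with shControl. The lowest hairpin library and the highest control were nearly level. The log2 fold change was 0.08 ± 0.05 (adjusted p = 0.156), with a 95% interval of -0.02 to 0.18, and its direction flipped to -0.08 with total counts. It was called without shRNA1 replicate 2 (0.13, adjusted p = 0.0283). IL6ST lies at chr5:55935095-55994993 on the minus strand. On the plus strand it is overlapped by AC008914.1 (antisense), AC016596.1 (a processed pseudogene) and AC008892.1 (a long non-coding RNA gene). A processed pseudogene listed as a partner, IL6STP1, had no counts.

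The ratios between receptor subunits, per kilobase of exon, moved accordingly. IL6ST was 28.7 and 49.2 times as abundant as IL6R in the controls and 14.7 to 21.5 times with the hairpins. OSMR was 3.49 and 3.63 times as abundant as IL6ST in the controls and 1.40 to 1.59 times with the hairpins. IL6ST was 3.35 and 3.43 times as abundant as LIFR in the controls and 5.49 to 7.71 times with the hairpins. In each of these ratios the hairpin and control libraries did not overlap.

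**Figure D3:**
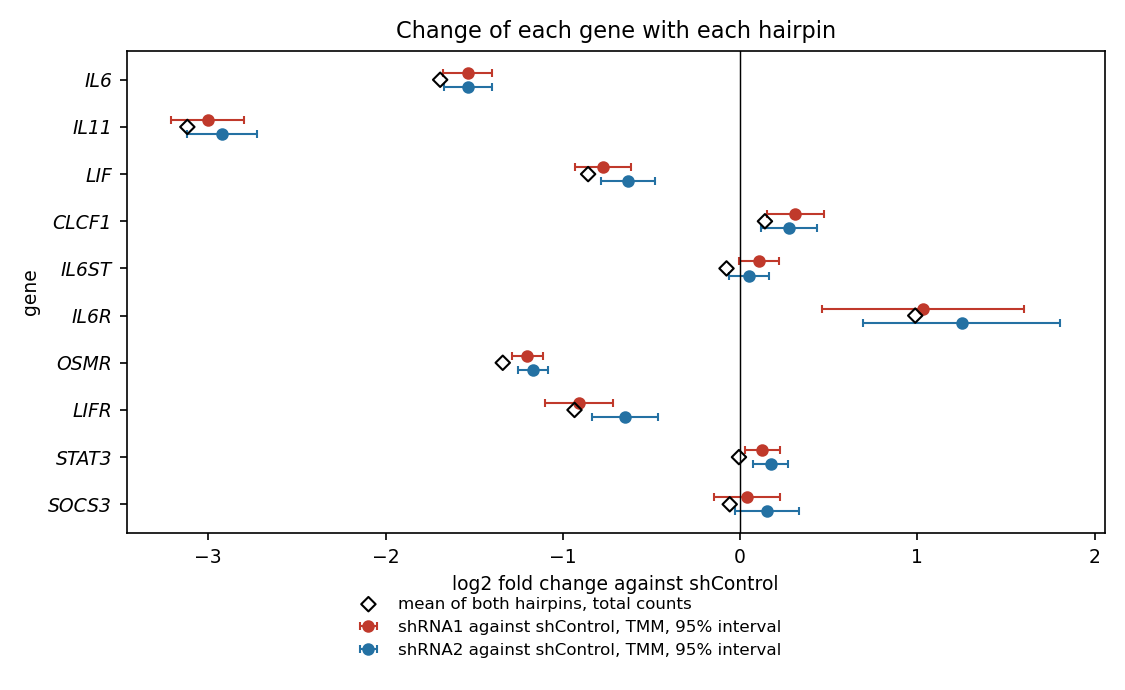
Log2 fold change against shControl for each hairpin (filled points with 95% intervals, TMM scaling) and, as open diamonds, for the mean of both hairpins with library sizes taken as total counts. The intervals of both hairpins overlap for every gene; with total counts the values of IL6ST, STAT3 and SOCS3 fall to -0.08, -0.01 and -0.06, and those of the 5 genes that fell stay below 0.

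Of the other receptors of the family, IL11RA and IL27RA could be tested and neither was called. IL11RA, through which IL-11 acts, stood at 1.15 to 1.75 CPM with the hairpins and at 1.29 and 1.36 CPM in the controls (0.25 ± 0.34, adjusted p = 0.559). IL27RA stood at 5.04 to 6.65 CPM against 5.20 and 6.35 CPM (-0.05 ± 0.18, adjusted p = 0.847). CNTFR and IL31RA had at most 2 and 3 counts in a library.

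STAT3 itself differed little. It stood at 152 and 164 CPM with shRNA1, at 161 and 166 CPM with shRNA2, and at 145 CPM in each control. All hairpin libraries lay above both controls, shRNA1 replicate 1 by the least. On the log2 scale STAT3 was higher by 0.15 ± 0.04 for the mean (1.11-fold higher, adjusted p = 0.00562), 0.13 ± 0.05 for shRNA1 and 0.17 ± 0.05 for shRNA2. With total counts it was -0.01 (adjusted p = 0.902), so the small increase rests on the scaling. Without shControl replicate 2 it was 0.14, close to the 0.15 with both controls, but it was no longer called. STAT3 lies at chr17:42313324-42388568 on the minus strand and no annotated gene overlaps it.

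SOCS3, the feedback inhibitor that STAT3 induces, stood at 47.0 and 40.5 CPM with shRNA1, at 45.6 and 48.9 CPM with shRNA2, and at 41.0 and 43.8 CPM with shControl. The lowest of the 6 values was a hairpin library and so was the highest. The log2 fold change was 0.10 ± 0.07 (adjusted p = 0.289), with a 95% interval of -0.06 to 0.26, and it was -0.06 with total counts. SOCS3 lies at chr17:78356778-78360077 on the minus strand.

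Of 8 tested Janus kinases and other STAT genes, 3 were higher, 2 lower and 3 not called, with a median log2 fold change of 0.19; over all tested genes 28.6% were higher and 28.9% lower. JAK2, a kinase of many cytokine receptors, fell from 17.6 and 12.7 CPM to 8.87, 8.05, 7.92 and 9.33 CPM (-0.82 ± 0.15, adjusted p = 1.8e-04). JAK1, the kinase on which IL6ST mainly relies and the most abundant of the list, was higher by 0.16 ± 0.03 (adjusted p = 2.0e-04), but by 0.01 (adjusted p = 0.859) with total counts. TYK2 had the largest called increase, 0.32 ± 0.05, and STAT6 was higher by 0.21 ± 0.04 but by 0.06 (adjusted p = 0.274) with total counts. STAT5B was lower by a log2 fold change of -0.28 ± 0.07 (adjusted p = 0.00397), a call lost without shControl replicate 2 (-0.24, adjusted p = 0.0544). STAT5A reached the threshold with shRNA2 (1.25 ± 0.50, adjusted p = 0.0463) but not with shRNA1 (0.87 ± 0.52, adjusted p = 0.177) or for the mean (adjusted p = 0.0578). Its mean was called without shRNA1 replicate 1 (1.19, adjusted p = 0.0466) or shRNA2 replicate 2 (1.27, adjusted p = 0.0250). STAT2 and STAT4 were not called, though STAT2 was called lower with total counts (-0.16, adjusted p = 0.0158), and JAK3 was too scarce to test. With total counts the split of this list was 1 higher and 3 lower, against 21.2% and 37.6% of all tested genes.

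Of 19 feedback inhibitors, adaptors and receptor sheddases, 6 were higher, 9 lower and 4 not called, with a median of -0.15, against 28.6% higher and 28.9% lower over all tested genes. With total counts 3 were higher and 12 lower, against 21.2% and 37.6%. Without shControl replicate 2 fewer genes were called, in this list as over all tested genes. SOCS2, an inhibitor best known for growth hormone signalling, had the lowest value of the list. It stood at 6.79 and 5.18 CPM with shRNA1, at 5.89 and 5.60 CPM with shRNA2, and at 21.0 and 20.4 CPM with shControl (-1.82 ± 0.13, adjusted p = 8.1e-09). PTPN6, a phosphatase that restrains cytokine receptors, had the highest, at 5.20 to 6.52 CPM against 4.08 and 1.85 CPM (1.04 ± 0.28, adjusted p = 0.00638). It was 0.54 (adjusted p = 0.112) without shControl replicate 2 and 1.68 (adjusted p = 3.5e-04) without shControl replicate 1. PTPN11 and GRB2, which couple IL6ST to the RAS pathway, rose by 0.48 ± 0.04 and 0.50 ± 0.04 on the log2 scale; this pair was chosen after the values were seen. ADAM10, a sheddase of IL6R and the most abundant of the list, was not called for the mean (-0.07 ± 0.03, adjusted p = 0.0521). It was called lower with shRNA2 alone, with total counts (-0.23, adjusted p = 7.7e-06) and without shRNA2 replicate 1 (-0.09, adjusted p = 0.0369). PIAS1, PIAS4 and GAB1 were called for the mean but with shRNA2 only. PIAS1 (0.10, adjusted p = 0.302) and PIAS4 (0.05, adjusted p = 0.567) were not called with total counts, while GAB1 was lower (-0.56, adjusted p = 0.00204). DESeq2 called PIAS1 but not PIAS4 (adjusted p = 0.0799) or GAB1 (adjusted p = 0.0626). Each of these genes lost its edgeR call without some single library. PIAS1 lost it without shRNA2 replicate 2 (adjusted p = 0.0513) or shControl replicate 2 (0.115), GAB1 without shRNA2 replicate 2 (0.0504) or either control (0.0595 and 0.116), and PIAS4 without any 1 library of shRNA2 or shControl (0.0539 to 0.182).

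Of 30 listed STAT3 targets and acute phase genes, 22 could be tested: 6 were higher, 13 lower and 3 not called, with a median of -0.36, where all tested genes gave 28.6% higher and 28.9% lower. With total counts 3 were higher and 15 lower, where all tested genes gave 21.2% and 37.6%. Many of these genes have other inducers, so their levels are not a measure of STAT3 activity. VEGFA, the angiogenic growth factor that HIF also induces, had the lowest value, at 246 to 261 CPM with the hairpins against 1328 and 1350 CPM (-2.42 ± 0.03, adjusted p = 1.3e-17). FGB, the beta chain of fibrinogen, had the highest, at 1.95 to 2.22 CPM against 0.429 and 1.03 CPM (1.49 ± 0.38, adjusted p = 0.00359). It was 1.04 (adjusted p = 0.0567) without shControl replicate 1 and 2.30 (adjusted p = 0.00246) without shControl replicate 2. FOS, the most abundant of the list, was not called (0.02 ± 0.03, adjusted p = 0.543), but with total counts it was called lower (-0.14, adjusted p = 2.4e-04). Chosen after their values were seen, IRF1, a transcription factor of interferon responses, fell from 104 and 108 CPM to 25.2 to 28.4 CPM (-1.95 ± 0.06). CCND1, cyclin D1, changed by -1.45 ± 0.03, the kinase gene PIM1 by -1.39 ± 0.07 and the survival gene MCL1 by -0.64 ± 0.03. These picks all come from the 13 lower genes and none from the 6 higher. SAA1, an acute phase protein, was called with shRNA2 but not with shRNA1 at under 1 CPM (-1.71 ± 0.69, adjusted p = 0.0440), and the call was lost without any 1 library other than shRNA1 replicate 1 (adjusted p 0.0816 to 0.235). HIF1A was called with shRNA1 but not with shRNA2 (0.09 ± 0.03, adjusted p = 0.0368), was -0.07 (adjusted p = 0.0935) with total counts, and lost its call without replicate 1 of either hairpin or without either control (adjusted p 0.0620 to 0.199). CRP, HP, A2M and BATF had no counts.

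Of 18 regulators of IL6 transcription and of cytokine mRNA decay, all tested, 4 were higher, 10 lower and 4 not called, with a median of -0.22, beside 28.6% higher and 28.9% lower over all tested genes. With total counts 2 were higher and 13 lower, beside 21.2% and 37.6%. CEBPB, a C/EBP factor also counted among the STAT3 targets, had the lowest value. It stood at 22.4 and 26.0 CPM with shRNA1, at 20.6 and 19.0 CPM with shRNA2, and at 64.4 and 64.7 CPM with shControl (-1.55 ± 0.07, adjusted p = 8.7e-11). ELAVL1 had the highest, at 134 to 141 CPM against 94.1 and 98.0 CPM (0.51 ± 0.04, adjusted p = 6.0e-08). Chosen after their values were seen, the AP-1 subunit gene FOSL1 changed by -1.36 ± 0.03, the NF-kB subunit gene RELB by -1.43 ± 0.17, ATF3 by -1.18 ± 0.04, ARID5A, which stabilises IL6 mRNA, by -1.27 ± 0.13, and the decay factor gene ZFP36L1 by -0.94 ± 0.03. All these picks come from the 10 lower genes and none from the 4 higher. RELA, the main transactivating NF-kB subunit, was not called (-0.01 ± 0.04, adjusted p = 0.882). It was called lower with total counts (-0.16, adjusted p = 0.00192). ZC3H12A, which encodes the RNase Regnase-1 that degrades IL6 mRNA, was called lower with shRNA1 (-0.25 ± 0.09, adjusted p = 0.0223) but not with shRNA2 or for the mean (-0.17 ± 0.07, adjusted p = 0.0534). Its mean was called with total counts (-0.33, adjusted p = 0.00109) and without shRNA1 replicate 2 (-0.21, adjusted p = 0.0213) or, just under the threshold, shRNA2 replicate 2 (-0.20). ZFP36 was called for the mean and with shRNA1 but not with shRNA2 (0.11 ± 0.04, adjusted p = 0.0455), its hairpin and control libraries overlapped, and it was -0.05 with total counts. It was not called once shRNA1 replicate 1 (adjusted p = 0.0903), shRNA2 replicate 1 (0.174) or shControl replicate 1 (0.509) was left out.

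**Figure D4:**
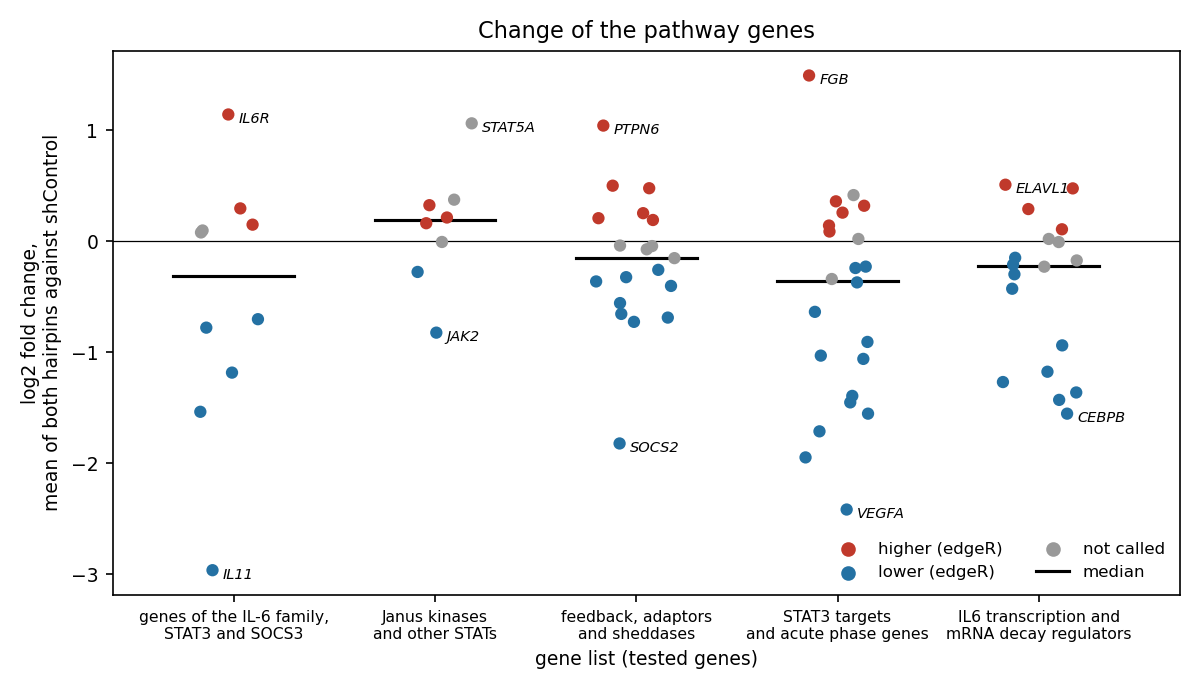
Log2 fold change of each tested gene for the mean of both hairpins against shControl, by gene list; each point is a gene, its colour gives the edgeR call and the bars are medians. Over the 5 lists drawn, the medians run from -0.36 (STAT3 targets and acute phase genes) to 0.19 (Janus kinases and other STATs), against -0.03 over all tested genes; with total counts the median over all tested genes is -0.18.

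The motifs of these factors were looked for in the 250 bases before the RefSeq start of each gene, on both strands. RefSeq windows were at hand for 8 of the 10 genes (11 windows, since LIFR and SOCS3 have more than 1), and LIF and CLCF1 had none. Besides the matches shown above for IL6 and IL11, OSMR held a C/EBP match 73 bases before its RefSeq start. The last 154 bases of this window are exon in another annotated OSMR transcript, so the match lies within that exon. The windows of LIFR held matches to a STAT element (TTCNNNGAA) 165 and 182 bases upstream and to a C/EBP element 31 bases upstream of their starts. None of the windows of IL6ST, IL6R, STAT3 and SOCS3 held any of the 6 motifs searched, which also included a CRE (TGACGTCA) and an ATF and C/EBP composite (TGATGNAA). For SOCS3 the windows were chr17:78360926-78361175 and chr17:78359668-78359917. The bases just before its GENCODE 29 start, chr17:78360077, lie in neither window and were not searched. The windows of IL6ST, IL6R, OSMR and STAT3 lie partly inside their GENCODE 29 genes. Those of IL6 and LIFR and the SOCS3 window chr17:78359668-78359917 lie wholly inside theirs. The matches of IL6 and LIFR are thus upstream of a RefSeq start but within the annotated gene. Overlap of the LIFR windows with exons was not examined. Of 35116 such windows genome-wide, 9.05% held the C/EBP element, 6.57% the AP-1 element, 6.57% the STAT element, 3.14% the composite, 1.73% the NF-kB element and 1.65% the CRE. No elements overlapped in the windows of IL6 and IL11, and no binding was measured.

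Of 8 antisense, divergent or pseudogene partners found in the table, 4 could be tested, and OSMR-AS1 was called. It starts just before OSMR on the opposite strand (chr5:38710367-38845829) and does not overlap it. It had 3 and 0 counts with shRNA1, 19 and 6 with shRNA2, and 27 and 45 with shControl (-2.93 ± 0.64, adjusted p = 0.00104). The value moved to -5.03 (adjusted p = 3.2e-04) without shRNA1 replicate 1. OSMR and its divergent partner were thus lower together. IL6-AS1, LIF-AS2 and LIFR-AS1, which overlap their partners, were not called (adjusted p 0.859, 0.451 and 0.300). IL6-AS1 had 22 and 23 counts with shRNA1, 28 and 18 with shRNA2, and 4 and 56 with shControl, so that its controls lay on either side of the hairpin libraries in CPM. Its value of -0.15 turned to 2.25 (adjusted p = 0.0397, called higher) without shControl replicate 2 and was -0.94 (adjusted p = 0.108) without shControl replicate 1. LIFR-AS1 had 10 and 14 counts with shRNA1, 10 and 0 with shRNA2, and 9 and 22 with shControl, and its value of -0.92 moved to -3.30 (adjusted p = 0.0339, called lower) without shRNA2 replicate 1. LIF-AS1, IL6R-AS1 and SOCS3-DT had at most 11, 4 and 12 counts in a library.

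The hairpins differed little from each other in these genes. Compared directly, 0 of the 10 genes were called with edgeR or DESeq2, against 0.0312% of all tested genes with edgeR (0.00623% higher and 0.0249% lower with shRNA1). Before adjustment LIFR alone was under 0.05 in the edgeR test, with a log2 difference of -0.26 ± 0.09 for shRNA1 against shRNA2 (adjusted p = 0.916). The 95% intervals of this difference were narrow for OSMR (-0.12 to 0.05) and IL6 (-0.14 to 0.14) and wide for IL6R (-0.76 to 0.32). The libraries of the hairpins did not overlap for LIF, IL6R and LIFR, 3 of 10 genes against 34.6% of all tested genes. Against the controls, the 4 hairpin libraries did not overlap for 9 of 10 genes (5 lower, 4 higher), against 67.0% of all tested genes (34.2% lower, 32.7% higher). Both hairpin groups were compared with the same 2 control libraries.

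By their pattern over the 6 libraries, as log2 CPM centred on the control mean, the closest pair of the 10 genes was IL6ST and STAT3, which never differed by more than 0.17. IL6ST and SOCS3 came next, at 0.18, and then LIF and LIFR, a ligand and its receptor, at 0.19. IL6 and OSMR stayed within 0.42 of each other. STAT3 and SOCS3 (0.25) and the pairs of CLCF1 with IL6ST, STAT3 and SOCS3 (0.27 to 0.35) were closer than that. IL11 stood alone, with IL6 nearest to it at 1.59, and IL11 and IL6R were the farthest apart, at 4.40. These distances are a description over libraries that share their groups.

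The order of the levels per kilobase of exon changed between the groups. In the controls it ran from IL6 (60.5 ± 0.75 CPM per kb, SD, n = 2) and IL11 (59.7 ± 0.06) through OSMR (48.7 ± 0.23), CLCF1 (22.3 ± 0.68), LIF (18.5 ± 1.34), STAT3 (16.5 ± 0.05), SOCS3 (15.5 ± 0.72), IL6ST (13.7 ± 0.30) and LIFR (4.04 ± 0.15) to IL6R (0.376 ± 0.132). No neighbours in this order overlapped between their 2 libraries, but the means of IL6 and IL11 differed by less than the SD of IL6. In the 4 hairpin libraries CLCF1 was first (27.3 ± 1.26, SD, n = 4), followed by OSMR (21.5 ± 0.56), IL6 (20.8 ± 0.72), STAT3 (18.3 ± 0.70), SOCS3 (16.6 ± 1.33), IL6ST (14.5 ± 0.70), LIF (11.4 ± 0.70), IL11 (7.62 ± 0.82), LIFR (2.36 ± 0.27) and IL6R (0.846 ± 0.096). Here OSMR overlapped IL6, STAT3 overlapped SOCS3, and SOCS3 overlapped IL6ST. IL11 thus stood among the most abundant of the 10 transcripts in the controls and below LIF with the hairpins, while LIFR and IL6R were the least abundant in both.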

How the data were processed

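RNA of 6 libraries of 786-O cells was sequenced paired-end, per the labels. The values deposited by the authors are whole-number counts per gene, not normalized. Per the submitters' processing notes, the authors used FastQC 0.11.9, Trim Galore 0.6.7, HISAT2 2.2.1 and StringTie 2.2.1 with hg38. Not given in the sources used here: the counting tool, annotation release, strand setting and handling of multi-mapping reads.

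Genes passing filterByExpr (16039) were fitted in R 4.3.3 with edgeR 4.0.16 (robust quasi-likelihood test, group means, TMM, all 3 groups sharing their dispersion), and p-values were adjusted by Benjamini-Hochberg over all of them; DESeq2 1.42.0 was an alternative. Standard errors are the fold change over the root of the F statistic. CPM per kb uses exon unions of GENCODE 29. The gene versions in the count table differ from those of GENCODE 29 for each of the 10 genes except SOCS3. How far this alters the lengths was not tested. The code was tested on simulated data. The genes and lists were chosen with earlier results of these data known. Some listed genes are not reported here and are left out of the counts of their lists. Named are the 10 genes and, from each list, the highest and lowest called and the most abundant gene and those called with 1 hairpin only; lists of up to 12 genes could be named in full. Other choices are marked.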

Additional observations from a re-analysis of the deposited data

How the results depend on the processing

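For the mean of both hairpins, IL6, IL11, LIF, OSMR, LIFR and IL6R kept their direction and call under all 13 alternatives (DESeq2, RLE factors, total counts, no filter and a stricter filter on low counts, replicate block, a test against a fold of 1.2, and each library left out). With total counts 6 of the 10 genes were called in place of 8, the median over all tested genes was -0.18 in place of -0.03, and 36.0% of all calls were higher in place of 49.7%. Values then changed sign for IL6ST (-0.077 for the mean, -0.045 for shRNA1, -0.11 for shRNA2), SOCS3 (-0.059, -0.11 and -0.0058) and STAT3 (-0.0066 for the mean, -0.026 for shRNA1). SOCS3 for shRNA1 ran from -0.050 to 0.16 over the libraries left out, below 0 without shRNA1 replicate 1 or shControl replicate 1. STAT3 for shRNA1 kept its call in 4 of 14 alternatives, and with DESeq2 its adjusted p was 0.0829. Against a fold of 1.2, CLCF1 (adjusted p = 0.244) and STAT3 lost their calls.

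Between the hairpins, where no gene was called, signs changed for IL6, from -0.00097 to 0.0054 with total counts, 0.00056 with the stricter filter and 0.00065 with only the groups compared. Over the libraries left out IL6 ran from -0.056 to 0.050, IL11 from -0.27 to 0.065, CLCF1 from -0.038 to 0.11, IL6ST from -0.011 to 0.12 and STAT3 from -0.11 to 0.010.

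Against a fold of 1.2, 6332 of all 16039 tested genes were called. The calls were then 8 of 19 in the feedback list and 9 of 18 among IL6 regulators. Among kinases and STATs 1 of 8 was called, and among STAT3 targets 11 of 22. With no filter 1 other cytokine was called, of 3 tested, beside 9313 of all 30218 tested genes. With the stricter filter 0 partners were called, beside 8959 of 13749. Over the libraries left out the feedback list had 8 to 15 calls and the partners 1 to 2. Where no construction of the alternative shows it (fewer genes or libraries, a higher bar), the cause was not tested.

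Replicate numbers did not pair the libraries (correlations of deviations -0.00, 0.01 and -0.03). With a replicate block 8 of the 10 genes were called, and 9170 of all genes in place of 9223. Where leaving out a library left its group with 1, that library was taken to vary as the other groups did. Depth limits IL6R, LINC02068, OSMR-AS1 and the family members near 1 CPM.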
